A study of Mus musculus with 25 samples.

Results

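Fatty acid oxidation and ketone use were followed through 35 nuclear genes, listed by name, whose TPM (a length-corrected abundance whose sum is the same in every library) were summed over the transcripts of each gene. These were 35 of 35969 genes with transcripts in the table, and all 35 were among the 11983 genes that reached a mean level of at least 1 and were tested. The RNA came from heart tissue, left ventricular by the extraction protocol, of 25 male mice in 5 groups of 5. WT CNTL and GPx4+/- CNTL mice ate a low-fat, starch-based diet, WT HFHS and GPx4+/- HFHS mice ate a diet of lard, cholesterol and sucrose, and WT HFHS + Carnosine mice ate the latter diet with 80 mM carnosine in the drinking water from week 7. Diets began at 8 to 10 weeks of age and lasted 16 weeks. GPx4+/- mice, which carry a disrupted allele of the lipid peroxide reductase glutathione peroxidase 4, were backcrossed with C57BL6/J, and WT mice were their littermates. Every mouse was fasted and then given dextrose or saline before the heart was taken, and which mouse received which is not given in the sources used here. A GPx4+/- HFHS group with carnosine was not analysed here.

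Heart muscle draws most of its energy from long-chain fatty acids. They are activated to acyl-CoA, carried into mitochondria as carnitine esters and shortened by a spiral of dehydrogenation, hydration, second dehydrogenation and thiolysis, whose electrons pass through the electron transfer flavoprotein to the respiratory chain. Ketone bodies made by the liver enter the same organelle and are turned back into acetyl-CoA by Bdh1, Oxct1 and Acat1. Many of these genes are textbook targets of the nuclear receptors PPARα and ERRα.

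Levels below are scaled TPM (TPM divided by a median-ratio factor per library), given for replicates 1 to 5 of each group in order, and differences are of log2(scaled TPM + 0.5) with the standard error of limma. A gene was called when its Benjamini-Hochberg adjusted p over all genes was under 0.05. Gpx4 itself was 669.7 ± 47.1 (SD, n = 5) in WT CNTL and 710.8 ± 67.4 in WT HFHS, and 305.6 ± 43.1 in GPx4+/- CNTL and 351.4 ± 22.0 in GPx4+/- HFHS, and no GPx4+/- library overlapped a WT library. The 35 genes took 1.19 to 1.60% of all TPM. Markers of heart muscle were high in every library, with a sum over 6 genes between 36381 and 45213. Summed atrial markers stood far above their group in WT CNTL replicate 3 at 4633, GPx4+/- CNTL replicates 1 and 2 at 7435 and 1498, GPx4+/- HFHS replicate 4 at 2727 and WT HFHS + Carnosine replicate 2 at 593.9, against group medians of 49.4 to 257.7, which goes against a purely ventricular origin of these 5 libraries. Hepatocyte markers also stood apart in GPx4+/- CNTL replicate 2 at 1198 and, less so, in GPx4+/- HFHS replicates 1 and 3 at 100.6 and 62.6, against at most 23.4 in the other libraries, and smooth muscle markers in WT HFHS replicate 4 at 527.8. White adipocyte markers did not pass 16.1, and the 5 medians of this sum were 0.203 to 4.29. Because whole tissue was sequenced, fewer cells of a type and less RNA per cell cannot be told apart.

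The HFHS diet was accompanied by higher levels of 4 genes of the carnitine route and all 4 acyl-CoA dehydrogenases. Also higher were 2 of the 4 genes for unsaturated chains. Among the genes of ketone use, Oxct1, the enzyme that activates ketone bodies, was called lower, Acat1 was called higher and Bdh1 was not called. In GPx4+/- mice alone Oxct1 was not called. Over both genotypes, 16 of the 35 genes were called, 15 higher and 1 lower, where 8.33% of all genes tested were called (4.68% higher and 3.65% lower). The 35 genes were chosen with earlier results of these data known, so the shares given here describe the list and do not test the pathway. Called genes of the pathway outside the list went both ways, as given below. The median difference of the 35 genes was 0.13, and that of all genes was -0.0024. In WT mice 4 genes were called (Cpt2, Acads and Decr1 higher, Oxct1 lower) against 1.19% of all genes (0.659% higher and 0.526% lower). In GPx4+/- mice 9 were called, all higher (Slc25a20, Cpt2, Acadl, Acadm, Acads, Decr1, Ech1, Etfdh and Acat1), against 3.34% of all genes (2.18% higher). These 2 diet comparisons share no mouse, and 22 of the 35 genes lay above 0 and 6 below 0 in both, while 7 had opposite signs. The matching share over all genes was not computed. The 35 genes also moved together within groups, as given below, so these are not separate agreements.

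Summed markers of several cell types shifted between the diets in the same mice, and are given for CNTL first and HFHS second. The sum of 6 heart muscle markers had a median of 44244 in WT CNTL and 38518 in WT HFHS mice, and of 41410 in GPx4+/- CNTL and 40252 in GPx4+/- HFHS mice. The median sum of 5 macrophage markers was 81.7 and 102.8 in WT and 89.5 and 101.2 in GPx4+/- mice, and that of 5 fibroblast markers 318.7 and 373.0 in WT and 336.5 and 375.2 in GPx4+/- mice, with the ranges of the 2 diets overlapping in each case. By median, heart muscle markers were thus lower and macrophage and fibroblast markers higher on HFHS, as were endothelial markers (231.8 and 246.8 in WT, 234.7 and 244.8 in GPx4+/- mice). White adipocyte medians were 0.546 and 4.29 in WT and 2.21 and 0.203 in GPx4+/- mice, and hepatocyte medians 9.72 and 5.19 in WT and 12.8 and 23.4 in GPx4+/- mice, with overlapping ranges. The smooth muscle sum shifted more, with medians of 107.0 and 189.8 in WT and 99.4 and 130.8 in GPx4+/- mice, and the atrial median was 148.6 and 137.1 in WT and 257.7 and 49.4 in GPx4+/- mice, again with overlapping ranges. The GPx4+/- atrial medians were nearly all Nppa. It was 254.9 in GPx4+/- CNTL replicate 4 and 45.9 in GPx4+/- HFHS replicate 3, the median mice. Myl4 was 1.87 and 2.36 there, and Myl7 and Sln were 0 in both. The sum of 4 brown adipocyte markers, of which Cidea alone reached a mean of 1 and Ucp1 was at most 0.032, was 24.4 to 28.4 and 27.9 to 32.9 in WT mice and did not overlap in GPx4+/- mice, at 20.1 to 26.9 and 27.8 to 31.5. Over both genotypes, 1 of the 6 heart muscle markers was called lower, 2 of the 5 fibroblast markers and Cidea were called higher, none of the 5 smooth muscle and 6 atrial markers was called, and none of the 5 macrophage markers was called, although all 5 lay above 0. The part of these shifts in the results was not tested.

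The number called turned on single mice within a genotype. In WT it fell to 0 without WT CNTL replicate 2, WT CNTL replicate 4, WT HFHS replicate 3 or WT HFHS replicate 5, to 1 without WT CNTL replicate 1, and to 2 without WT CNTL replicate 5 or WT HFHS replicate 1. In GPx4+/- it fell to 4 without GPx4+/- CNTL replicate 1 or GPx4+/- HFHS replicate 1 and to 5 without GPx4+/- CNTL replicate 4. Over both genotypes it stayed between 14 and 17 with any 1 mouse left out. Without the 6 libraries named above for markers of other tissue it was 10 over both genotypes, 2 in WT and 1 in GPx4+/-. When GPx4+/- HFHS replicates 1 and 3 were left out as well, a setting chosen after the data were seen that leaves 2 mice in that group, it was 4, 2 and 0, and the 4 were Cpt2, Acads and Decr1, higher, and Hsd17b10, lower at -0.24 ± 0.04 (SE, adjusted p = 0.016). On TPM as deposited, with no scaling factor, it was 10 (8 higher), 1 and 2 (1 higher), and the share of higher genes among all genes called went from 56.2% to 20.1% over both genotypes and from 65.2% to 8.73% in GPx4+/-. The median of all genes in GPx4+/- was then -0.10, and the median of the 35 genes stood 0.15 above it, against 0.16 after scaling. All 16 called genes kept their direction in all of these fits, and Acads, Cpt2 and Decr1 also kept their call over both genotypes under all 10 other settings and all 20 fits with 1 mouse left out. In WT alone their calls were lost in 4, 6 and 16 of these 20 fits, and that of Oxct1 in 7. The WT calls of Acads, Cpt2, Decr1 and Oxct1 held under 8, 7, 6 and 9 of 11 other settings. In GPx4+/- alone the calls of Acadm, Ech1, Acadl, Etfdh and Acat1 were lost in 13, 12, 6, 3 and 2 of 20 such fits. Those of Acads, Cpt2, Decr1 and Slc25a20 were lost in none. Of 11 other settings, the GPx4+/- calls of Acadl, Acadm and Ech1 held under 5 each, and the rest under 7 to 9.

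**Figure D1:**
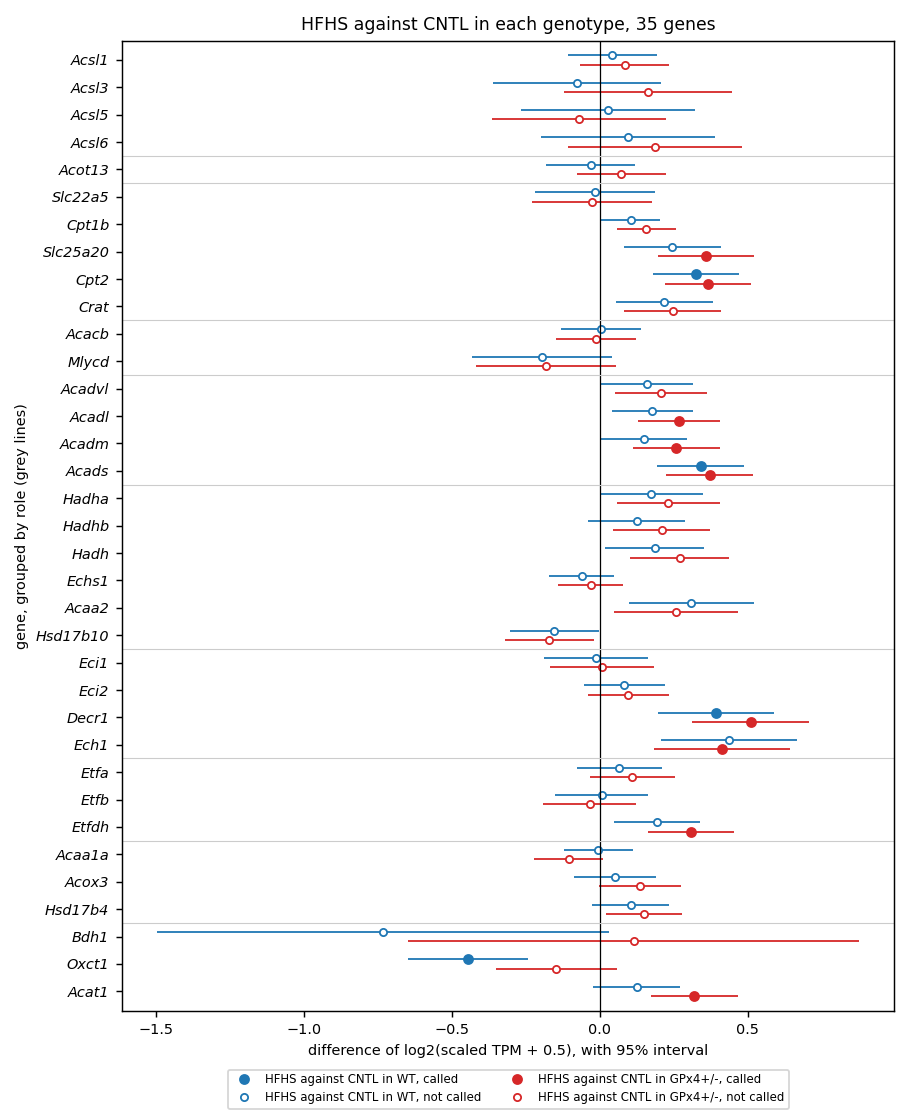
Difference of log2(scaled TPM + 0.5) between HFHS and CNTL for the 35 genes, in WT (blue) and GPx4+/- (red) mice, with 95% intervals of limma. Filled points were called at an adjusted p under 0.05, which were 4 genes in WT and 9 in GPx4+/-, and grey lines separate roles.

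Activation of fatty acids to acyl-CoA showed no called gene among its 4 synthetases. Acsl1, the main synthetase of heart muscle, lay between 324.4 and 438 scaled TPM over the 25 mice, with a diet difference of 0.06 ± 0.05 (SE, adjusted p = 0.48) over both genotypes. Acsl3, Acsl5 and Acsl6 were low, with means over all mice of 2.79, 5.62 and 8.02. Acsl6 had the smallest p of the 4, with 5.8, 8.1, 7.2, 6.89 and 7.99 in WT CNTL mice, 8.06, 7.38, 10.1, 6.1 and 7.4 in GPx4+/- CNTL mice, 7.28, 7.26, 7.88, 7.29 and 8.74 in WT HFHS mice, 11.2, 7.01, 9.37, 11.1 and 6.58 in GPx4+/- HFHS mice, and 6.4, 11.5, 9.0, 8.22 and 6.68 in WT HFHS + Carnosine mice. Its groups overlapped and its diet difference was 0.14 ± 0.10 (SE, adjusted p = 0.41), or -0.03 without the 8 libraries described above. The thioesterase Acot13, which releases free fatty acid from acyl-CoA, had 334, 361, 278, 333 and 329 in WT CNTL mice, 296, 329, 282, 337 and 315 in GPx4+/- CNTL mice, 356, 301, 336, 277 and 333 in WT HFHS mice, 339.8, 322, 321, 342 and 313 in GPx4+/- HFHS mice, and 311, 371, 331, 315 and 302 in WT HFHS + Carnosine mice. Its difference was 0.02 ± 0.05 (SE, adjusted p = 0.84), and its sign turned to -0.03 on TPM as deposited, to -0.0073 without WT CNTL replicate 3 and to -0.0030 without the 8 libraries.

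Of the carnitine route, 4 genes were called higher on HFHS and the uptake step was not called. Cpt1b (chromosome 15, 89416405 to 89425863, minus strand of GRCm38) encodes the muscle carnitine palmitoyltransferase of the outer membrane, and it measured 348, 352, 334, 353 and 377 in WT CNTL mice, 319, 324, 364, 327 and 359.7 in GPx4+/- CNTL mice, 383, 387, 391, 359 and 378 in WT HFHS mice, 409, 369, 381, 373 and 357 in GPx4+/- HFHS mice, and 379.8, 369, 376, 427 and 386 in WT HFHS + Carnosine mice. The HFHS mice were on the whole higher but the groups overlapped, and the difference of 0.13 ± 0.03 (SE, adjusted p = 0.021) was the smallest of the called genes. Slc25a20 (chromosome 9, 108662088 to 108684641, plus strand), the carrier that exchanges acylcarnitine for carnitine across the inner membrane, measured 146, 139, 132, 137 and 159.7 in WT CNTL mice, 132, 137, 160.3, 119.9 and 140.00 in GPx4+/- CNTL mice, 182, 159.98, 182, 147 and 178 in WT HFHS mice, 194, 181, 179, 174 and 156 in GPx4+/- HFHS mice, and 151, 195, 173, 185 and 174 in WT HFHS + Carnosine mice. Its difference was 0.30 ± 0.06 (SE, adjusted p = 0.0021) over both genotypes, 0.25 ± 0.08 in WT (adjusted p = 0.12) and 0.36 ± 0.08 in GPx4+/- (adjusted p = 0.015).

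Cpt2 (chromosome 4, 107903981 to 107923610, minus strand), which rebuilds acyl-CoA on the matrix side, measured 133, 129.7, 129.6, 133 and 153 in WT CNTL mice, 134, 127, 156, 122 and 129 in GPx4+/- CNTL mice, 177, 157, 177, 158 and 181 in WT HFHS mice, 191, 161, 180.01, 170.3 and 159 in GPx4+/- HFHS mice, and 159, 190.04, 168, 181 and 158 in WT HFHS + Carnosine mice. All 10 HFHS mice without carnosine lay above all 10 CNTL mice, which held for no other gene of the 35 and for 0.484% of all genes in either direction. Its difference was 0.35 ± 0.05 (SE, adjusted p = 0.0003), with 0.33 ± 0.07 in WT and 0.37 ± 0.07 in GPx4+/-, and 5 mice against 5 gave the smallest p that the exact two-sided permutation test allows in either genotype, 0.0079. Crat (chromosome 2, 30400471 to 30415813, minus strand), which moves acetyl and short acyl groups between CoA and carnitine, measured 277, 286, 258, 294 and 329.8 in WT CNTL mice, 271, 259.8, 328, 268 and 284 in GPx4+/- CNTL mice, 337, 307, 350.4, 319.6 and 365 in WT HFHS mice, 369, 293, 367, 337 and 309.8 in GPx4+/- HFHS mice, and 329.8, 368, 329, 363 and 335 in WT HFHS + Carnosine mice. Its groups overlapped, with WT CNTL replicate 5 and GPx4+/- CNTL replicate 3 the highest of the CNTL mice, and the difference was 0.23 ± 0.06 (SE, adjusted p = 0.013). Slc22a5, the plasma membrane carnitine transporter, lay between 12.4 and 18.0 with a difference of -0.02 ± 0.07 (SE, adjusted p = 0.88).

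Malonyl-CoA, the inhibitor of the muscle transferase, is made by Acacb and broken down by Mlycd, and neither gene was called. Acacb lay between 78.0 and 107, with a diet difference of -0.00 ± 0.05 and a 95% interval of -0.10 to 0.09. Mlycd measured 79.3, 76.1, 69.9, 76.9 and 86.1 in WT CNTL mice, 73.7, 64.3, 99.9, 69.1 and 70.8 in GPx4+/- CNTL mice, 63.8, 62.3, 81.6, 57.9 and 75.1 in WT HFHS mice, 75.0, 76.2, 59.2, 61.2 and 59.4 in GPx4+/- HFHS mice, and 55.6, 67.6, 66.1, 76.6 and 61.6 in WT HFHS + Carnosine mice. GPx4+/- CNTL replicate 3 was the highest of all 25 mice, and the difference was -0.19 ± 0.08 (SE, adjusted p = 0.15).

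All 4 acyl-CoA dehydrogenases, which open each turn of the spiral for chains of different length, were called higher over both genotypes. Acadvl (chromosome 11, 70010183 to 70015411, minus strand), for very long chains, measured 694, 727, 627, 728 and 759 in WT CNTL mice, 653, 627, 789, 645 and 707 in GPx4+/- CNTL mice, 839, 714, 779, 743 and 878 in WT HFHS mice, 848, 721, 842, 814 and 723 in GPx4+/- HFHS mice, and 768, 912, 775, 873 and 767 in WT HFHS + Carnosine mice. Its groups overlapped, its difference was 0.18 ± 0.05 (SE, adjusted p = 0.034), and it lost its call in 10 of the 20 fits with 1 mouse left out. Acadl (chromosome 1, 66830839 to 66863277, minus strand), for long chains, measured 728, 759, 675, 728 and 728 in WT CNTL mice, 688, 719, 803, 643 and 699.6 in GPx4+/- CNTL mice, 906, 775, 746, 765 and 912 in WT HFHS mice, 898, 828, 881, 877 and 787 in GPx4+/- HFHS mice, and 821, 934, 833, 914 and 877 in WT HFHS + Carnosine mice. Of the HFHS mice without carnosine, WT HFHS replicate 3 was the lowest, below GPx4+/- CNTL replicate 3 and WT CNTL replicate 2, and the difference was 0.22 ± 0.05 (SE, adjusted p = 0.0061).

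Acadm (chromosome 3, 153922357 to 153944632, minus strand), for medium chains, measured 792, 820.3, 724, 773 and 838 in WT CNTL mice, 696, 746, 867, 713 and 772 in GPx4+/- CNTL mice, 953, 794, 861, 815 and 962 in WT HFHS mice, 997, 838, 960.5, 904 and 838 in GPx4+/- HFHS mice, and 871, 1018, 864, 959 and 851 in WT HFHS + Carnosine mice. Its difference was 0.20 ± 0.05 (SE, adjusted p = 0.016), with 0.26 ± 0.07 in GPx4+/- and 0.15 ± 0.07 in WT, and the difference between these was 0.11 ± 0.10 (SE, adjusted p = 0.82). Acads (chromosome 5, 115110299 to 115119346, minus strand), for short chains, measured 179.8, 164, 157, 175 and 199 in WT CNTL mice, 159, 163, 178, 172 and 176 in GPx4+/- CNTL mice, 228, 204, 235, 201 and 242 in WT HFHS mice, 237, 197, 229, 232 and 204 in GPx4+/- HFHS mice, and 198, 251, 217, 231 and 204 in WT HFHS + Carnosine mice. Within each genotype every HFHS mouse lay above every CNTL mouse, and the mean over both genotypes was 28.1% higher on HFHS. Its difference of 0.36 ± 0.05 (SE, adjusted p = 0.00023) carried the smallest p of the 35 genes.

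**Figure D2:**
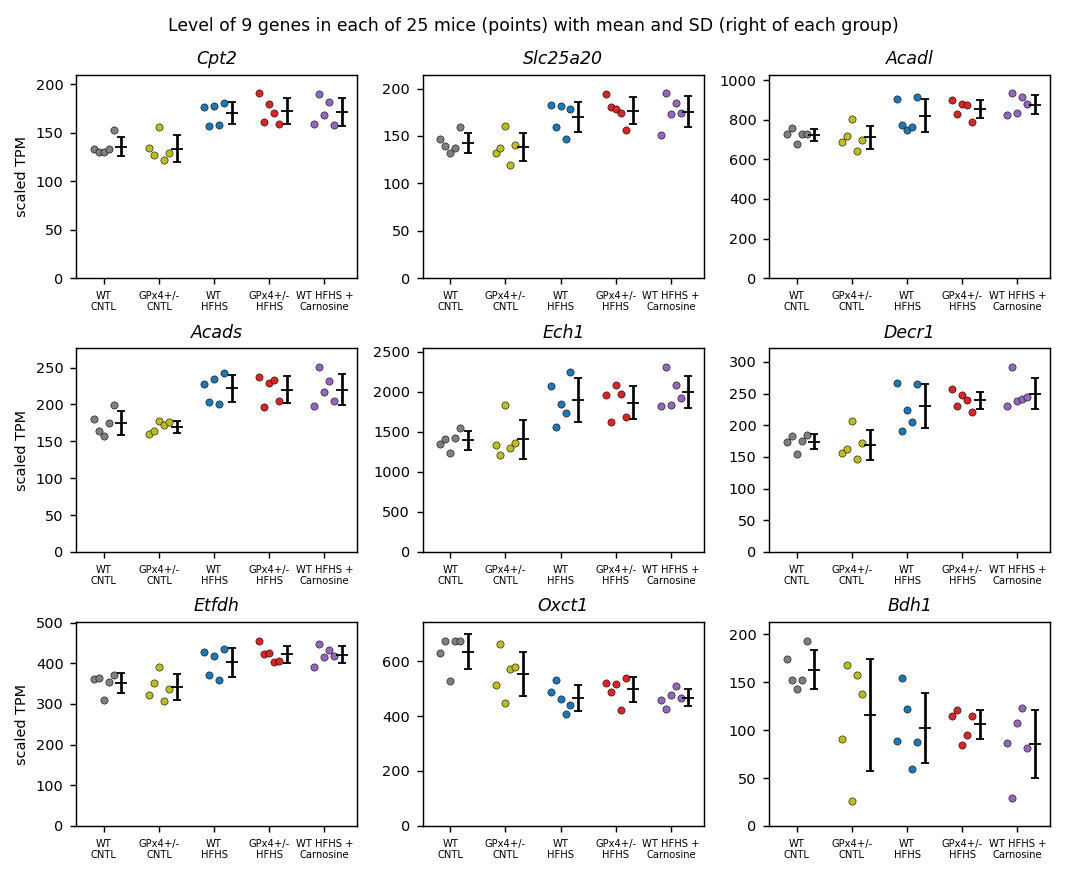
Scaled TPM of 9 genes in each of the 25 mice (points, in replicate order) with the mean and SD of 5 mice to the right of each group, on axes that start at 0. Cpt2 and Acads lie higher in the HFHS groups, Oxct1 lower, and Bdh1 spreads from 25.6 to 193 scaled TPM.

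Of the 6 genes of the hydratase, second dehydrogenase and thiolase steps, 3 were called, all higher. Hadha (chromosome 5, 30118304 to 30155162, minus strand) encodes the α subunit of the trifunctional protein, which carries the hydratase and dehydrogenase steps for long chains, and measured 781, 815, 725, 798 and 878 in WT CNTL mice, 714, 698, 965, 696 and 836 in GPx4+/- CNTL mice, 948, 862, 863, 847 and 991 in WT HFHS mice, 987, 836, 976, 881 and 883 in GPx4+/- HFHS mice, and 882, 998, 893, 1020.1 and 924 in WT HFHS + Carnosine mice. Its difference was 0.20 ± 0.06 (SE, adjusted p = 0.037) and its call was lost in 11 of the 20 fits with 1 mouse left out. Hadhb, the thiolase subunit of the same complex, ranged from 1132 to 1627 and was not called at 0.17 ± 0.06 (SE, adjusted p = 0.066). The mean level of Hadhb, 1396 scaled TPM, was above that of Hadha, 868. Of the level of Hadha, 64.2% sat on Hadha-201, which is annotated as a processed transcript and not as protein coding.

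Hadh (chromosome 3, 131233419 to 131272101, minus strand), the dehydrogenase for medium and short chains, measured 411, 445, 398, 439.9 and 494 in WT CNTL mice, 399, 414, 494, 393 and 439.6 in GPx4+/- CNTL mice, 541, 459, 507, 451 and 532 in WT HFHS mice, 595, 472, 531, 526 and 459 in GPx4+/- HFHS mice, and 477, 615, 503, 533 and 466 in WT HFHS + Carnosine mice. It was called at 0.23 ± 0.06 (SE, adjusted p = 0.017) and its groups overlapped through WT CNTL replicate 5 and GPx4+/- CNTL replicate 3. Acaa2, the mitochondrial thiolase for medium chains, measured 751, 772, 723, 768 and 882 in WT CNTL mice, 784, 709, 1035, 715 and 776 in GPx4+/- CNTL mice, 1008, 821, 1003, 896 and 1116 in WT HFHS mice, 1061, 849, 1016, 1003 and 852 in GPx4+/- HFHS mice, and 879, 1229.8, 948, 1014 and 871 in WT HFHS + Carnosine mice. GPx4+/- CNTL replicate 3 was above every other CNTL mouse and above 8 of the 10 HFHS mice without carnosine, and the difference was 0.28 ± 0.07 (SE, adjusted p = 0.018). Echs1, the short-chain hydratase, and Hsd17b10, a dehydrogenase that also serves branched-chain amino acids, were not called, at -0.05 ± 0.04 and -0.16 ± 0.05 (SE, adjusted p = 0.056).

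Hadha and Hadhb lie head to head on chromosome 5. The stretch between their annotated bounds in GENCODE M21, chr5:30155163-30155247 of GRCm38, is shown because both subunits of 1 complex are read outward from it, and it holds no annotated exon. It is given from RefSeq (GRCm38.p6), on the plus strand, in lower case throughout. 
Hadha-Hadhb: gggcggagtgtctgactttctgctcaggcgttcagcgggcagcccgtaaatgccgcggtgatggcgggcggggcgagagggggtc

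RefSeq promoter windows were at hand for 28 of the 35 genes, and the 250 bases before each start were searched on both strands, beside those of 32851 windows in all. The 28 genes had 32 windows, and a gene was counted where any of its windows held the letters. The direct repeat named for PPAR receptors, 2 copies of AGGTCA in the same direction with any 1 base between them, was in none of the 28 and in 0.0335% of all windows. A single AGGTCA, which the longer motifs contain, was in 4 of the 28 (14.3%: Acadm, Acadvl, Acsl6 and Echs1) and in 14.0% of all. AGGTCA directly preceded by TCA, the extended site of receptors such as ERRα, was in Acsl6 alone and in 0.387% of all. The letters CCAAT, a common promoter element read on both strands, were in 13 of the 28 genes (46.4%) and in 33.8% of all windows. Acot13, Cpt1b, Crat, Acaa2, Decr1, Hsd17b4 and Acat1 had no entry. The stretches of the 2 called genes that hold AGGTCA on either strand are shown 5′ to 3′ on the minus strand, on which both genes lie, with the matched letters in capitals, which in Acadm are the reverse complement TGACCT. Those of Acadvl, chr11:70015484-70015543, and Acadm, chr3:153944834-153944893, overlap no annotated exon.
Acadvl: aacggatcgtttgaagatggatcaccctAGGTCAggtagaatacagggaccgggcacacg
Acadm: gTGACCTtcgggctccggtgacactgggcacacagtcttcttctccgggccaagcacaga

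The largest increases among the 35 genes over both genotypes were in 2 of the 4 genes for unsaturated chains, which need extra isomerase or reductase steps to enter the spiral. Decr1 (chromosome 4, 15917240 to 15945507, minus strand), the mitochondrial dienoyl-CoA reductase, measured 173, 182, 155, 175 and 185 in WT CNTL mice, 157, 163, 207, 146 and 171 in GPx4+/- CNTL mice, 266, 191, 224, 205 and 265 in WT HFHS mice, 257, 229.9, 248, 241 and 221 in GPx4+/- HFHS mice, and 230.2, 292, 239, 241 and 245 in WT HFHS + Carnosine mice. Within each genotype all 5 HFHS mice were above all 5 CNTL mice, and the mean over both genotypes was 37.0% higher on HFHS. The difference was 0.45 ± 0.07 (SE, adjusted p = 0.00036), with 0.39 ± 0.09 in WT and 0.51 ± 0.09 in GPx4+/-. Ech1 (chromosome 7, 28825217 to 28832247, plus strand), the dienoyl-CoA isomerase, measured 1350.1, 1413, 1230.3, 1424 and 1542 in WT CNTL mice, 1336, 1211, 1829, 1300.3 and 1354 in GPx4+/- CNTL mice, 2075, 1562, 1849, 1734 and 2247 in WT HFHS mice, 1956, 1616, 2088, 1969 and 1683 in GPx4+/- HFHS mice, and 1823, 2308, 1838, 2086 and 1927 in WT HFHS + Carnosine mice. It had the highest mean level of the 35 genes, 1710.1 scaled TPM, or 12.5% of their summed level, and its difference was 0.42 ± 0.08 (SE, adjusted p = 0.0021). WT mice on the 2 diets did not overlap, whereas GPx4+/- CNTL replicate 3 reached into the GPx4+/- HFHS range, and the exact permutation p was 0.0079 in WT and 0.024 in GPx4+/-. Eci1 and Eci2, isomerases of single double bonds, were not called, at -0.00 ± 0.06 and 0.09 ± 0.05.

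Of the flavoprotein genes that take electrons from the dehydrogenases, Etfdh was called and the subunits Etfa and Etfb were not. Etfdh (chromosome 3, 79603788 to 79629500, minus strand), the oxidoreductase that hands the electrons to ubiquinone, measured 360.3, 364, 309, 353 and 369.8 in WT CNTL mice, 322, 352, 391, 306 and 336 in GPx4+/- CNTL mice, 428, 370.00, 417, 359 and 436 in WT HFHS mice, 455, 422, 424, 402 and 405 in GPx4+/- HFHS mice, and 391, 448, 415, 433 and 417 in WT HFHS + Carnosine mice. All 5 GPx4+/- HFHS mice were above all 5 GPx4+/- CNTL mice, WT HFHS replicate 4 fell within the WT CNTL range, and the difference was 0.25 ± 0.05 (SE, adjusted p = 0.004). Etfa and Etfb stood at 0.09 ± 0.05 and -0.01 ± 0.05. For comparison, of 81 tested nuclear-encoded subunits of the respiratory chain, none was called by limma over both genotypes (at an unadjusted p under 0.05, 1 was higher and 4 lower), and their median difference was -0.01.

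None of the 3 peroxisomal genes was called. Hsd17b4, the peroxisomal bifunctional enzyme, came nearest and measured 51.3, 50.04, 44.6, 52.5 and 50.6 in WT CNTL mice, 45.8, 52.9, 50.9, 46.2 and 51.7 in GPx4+/- CNTL mice, 53.7, 52.2, 59.1, 50.4 and 52.3 in WT HFHS mice, 62.7, 55.8, 52.4, 53.5 and 50.8 in GPx4+/- HFHS mice, and 50.7, 53.6, 56.3, 54.4 and 53.6 in WT HFHS + Carnosine mice. Its groups overlapped and its difference was 0.13 ± 0.04 (SE, adjusted p = 0.079). Acaa1a, the peroxisomal thiolase, and Acox3, an oxidase of branched chains, stood at -0.05 ± 0.04 and 0.09 ± 0.05. Acaa1a has a close copy, Acaa1b, between which reads may be split, and Acaa1b lay under the level needed for testing.

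Of the 3 genes of ketone body use, 1 was called lower, 1 was called higher and 1 was not called. Oxct1 (chromosome 15, 4026383 to 4155344, plus strand), the succinyl-CoA transferase that commits acetoacetate to oxidation, measured 628, 674, 528, 672 and 672 in WT CNTL mice, 512, 662, 449, 570.3 and 577 in GPx4+/- CNTL mice, 487, 533, 461, 408 and 442 in WT HFHS mice, 521, 489, 517, 423 and 538 in GPx4+/- HFHS mice, and 457, 426, 477, 510.2 and 467 in WT HFHS + Carnosine mice. In WT, WT HFHS replicate 2 was the only HFHS mouse inside the CNTL range, where WT CNTL replicate 3 was the lowest, and the difference was -0.45 ± 0.10 (SE, adjusted p = 0.03). In GPx4+/- the difference was -0.15 ± 0.10 (SE, adjusted p = 0.46) and the groups overlapped, while over both genotypes it was -0.30 ± 0.07 (SE, adjusted p = 0.012). The difference between the genotypes was 0.30 ± 0.14 (SE, adjusted p = 0.69) and so was not shown.

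Acat1 (chromosome 9, 53580522 to 53610382, minus strand), the thiolase that splits acetoacetyl-CoA, measured 239, 251, 214, 255 and 251 in WT CNTL mice, 198, 222, 246, 217 and 232 in GPx4+/- CNTL mice, 281, 242, 264, 247 and 286 in WT HFHS mice, 308, 249.9, 299.8, 272 and 264 in GPx4+/- HFHS mice, and 263, 291, 265, 283 and 279 in WT HFHS + Carnosine mice. It was called higher at 0.22 ± 0.05 (SE, adjusted p = 0.0088), and the GPx4+/- mice on the 2 diets did not overlap. Bdh1, the hydroxybutyrate dehydrogenase, was not called and had the widest spread of the 3. It was 163 ± 20.5 (SD, n = 5) in WT CNTL, 116 ± 58.6 in GPx4+/- CNTL mice, 103 ± 36.7 in WT HFHS mice, 106 ± 15.4 in GPx4+/- HFHS mice and 85.6 ± 35.4 with carnosine. GPx4+/- CNTL replicate 3 at 25.6 and WT HFHS + Carnosine replicate 2 at 29.6 were the lowest, and the diet difference was -0.73 ± 0.36 (SE, adjusted p = 0.32) in WT and 0.11 ± 0.36 (SE, adjusted p = 0.91) in GPx4+/-.

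Further genes of oxidation and ketone metabolism, from a list of 44 of which 38 were tested, gave 3 higher and 5 lower over both genotypes, where 4.68% of all genes were called higher and 3.65% lower. The higher ones included Acsf2, an acyl-CoA synthetase family member, at 0.32 ± 0.08 (SE, adjusted p = 0.019) and Scp2, whose products include a peroxisomal thiolase, at 0.14 ± 0.04 (SE, adjusted p = 0.039). The lower ones were Ehhadh, the peroxisomal bifunctional enzyme of straight chains (-0.61 ± 0.14 (SE, adjusted p = 0.011)), Acaca (-0.41 ± 0.06), Cpt1a, the transferase form of liver (-0.37 ± 0.07), Acadsb (-0.25 ± 0.05) and Acsl4 (-0.21 ± 0.06).

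Cpt1a measured 26.9, 23.9, 29.0, 24.3 and 23.5 in WT CNTL mice, 26.4, 22.8, 30.9, 20.5 and 22.7 in GPx4+/- CNTL mice, 16.8, 18.8, 21.3, 21.7 and 17.5 in WT HFHS mice, 19.8, 23.5, 17.8, 17.9 and 17.4 in GPx4+/- HFHS mice, and 17.4, 19.6, 17.7, 23.1 and 16.6 in WT HFHS + Carnosine mice, and so lay far below Cpt1b in every mouse. Its CNTL mice were on the whole higher, and the groups overlapped. Of 22 regulators and co-regulated genes, Fabp3, the fatty acid binding protein of heart, was called higher at 0.34 ± 0.04 (SE, adjusted p = 4.9e-05) and Ucp3, an uncoupling protein, lower at -0.62 ± 0.19 (SE, adjusted p = 0.048). Fabp3 measured 4983, 4999, 4505, 4870.02 and 5201 in WT CNTL mice, 4294, 4578, 4494, 4422 and 4451 in GPx4+/- CNTL mice, 6193, 5672, 6268, 5289 and 6020.2 in WT HFHS mice, 6529.6, 5949.9, 5797, 5804 and 5577 in GPx4+/- HFHS mice, and 5708, 6241, 5882, 5731 and 5777 in WT HFHS + Carnosine mice, with no overlap between the 2 diets. In WT mice Prkaa2, a catalytic subunit of AMPK, was called lower at -0.23 ± 0.05 (SE, adjusted p = 0.026), and in GPx4+/- mice Cd36, a fatty acid uptake protein, was called higher at 0.28 ± 0.07 (SE, adjusted p = 0.039). Over both genotypes Ppara, Ppargc1a and Pdk4 were not called, at -0.07 ± 0.08, -0.21 ± 0.10 and -0.51 ± 0.28.

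Between genotypes none of the 35 genes was called by limma, where 0.0584% of all genes were called over both diets. At an unadjusted p under 0.05, which 3.89% of all genes reached, 1 gene was lower, Acsl3, at -0.33 ± 0.10 and an adjusted p of 0.9997. The median of the 35 genes was -0.01, and the 95% intervals of 33 of them lay within 0.5 of 0 on the log2 scale. On each diet alone none was called either (0.0501% of all genes on CNTL and on HFHS), with 1 and 0 at an unadjusted p under 0.05 (6.29% and 4.56% of all genes). The diet difference did not pass the test of a difference between genotypes for any gene (0% of all genes), with Oxct1 alone at an unadjusted p under 0.05 (7.14% of all genes).

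Carnosine in WT HFHS mice was accompanied by no called gene among the 35 and none among all 11983 genes (0%), by limma, and none of the 35 reached an unadjusted p under 0.05, which 4.21% of all genes did. The differences ran from -0.33 for Bdh1 to 0.12 for Decr1, and their median was 0.03. For 34 of the 35 the 95% interval lay within 0.5 of 0 on the log2 scale. For Cpt2 the interval was -0.14 to 0.16, for Decr1 -0.10 to 0.34, for Oxct1 -0.16 to 0.17 and for Bdh1 -1.12 to 0.46. The last of these also holds the WT diet difference of Bdh1. No gene separated the 2 groups, whereas 0.609% of all genes did.

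Against WT CNTL, WT HFHS + Carnosine mice had 6 called genes, Acadl, Acads, Cpt2, Decr1 and Ech1 higher and Oxct1 lower, where 1.18% of all genes were called (0.676% higher and 0.501% lower). The number fell to 1 without WT HFHS + Carnosine replicate 2, to 2 without WT CNTL replicate 4 and to 3 without WT CNTL replicate 2. It was 2 without the 6 libraries with markers of other tissue, also with 8 left out, 2 with no filter on low levels, 3 on TPM as deposited, 3 with only these 2 groups in the fit and 13 after quantile normalization. This comparison shares its control mice with the WT diet comparison, so the values are set side by side. Decr1 was 0.52 ± 0.09 with carnosine and 0.39 ± 0.09 without, Ech1 0.52 ± 0.11 and 0.44 ± 0.11, and Oxct1 -0.44 ± 0.09 and -0.45 ± 0.10. Groups of 5 did not overlap for 11 of the 35 genes, 9 higher and 2 lower (Bdh1 and Oxct1), against 3.26% of all genes.

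**Figure D3:**
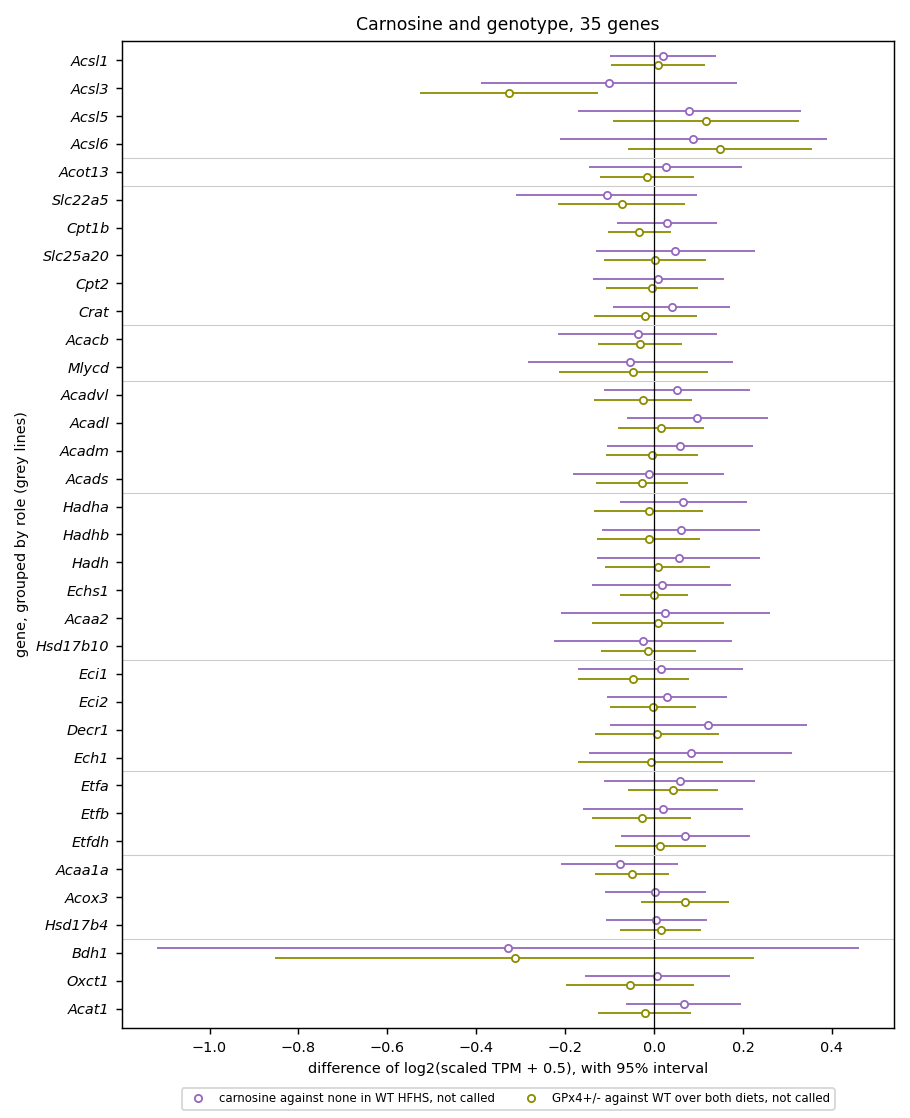
Difference of log2(scaled TPM + 0.5) for the 35 genes between the carnosine-treated and untreated WT HFHS groups (purple) and between GPx4+/- and WT mice over both diets (olive), with 95% intervals of limma. No gene was called in either comparison, and Bdh1 has the widest intervals.

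The share of a gene's level held by its leading transcript ran from 29.4% for Bdh1 to 99.96% for Acaa2. It was also low for Acsl3 at 46.6%, Acacb at 48.7% and Eci2 at 49.0%. Of 112 transcripts of the 35 genes that were tested, 17 were called for HFHS against CNTL over both genotypes, where 3.05% of 23317 transcripts were. They included the leading transcript of 14 of the 16 called genes. For Cpt2 the leading transcript held 97.2% of the gene's level, for Decr1 99.9% and for Acads 99.1%. Hadha-205, annotated as protein coding, was called at 0.31 beside the leading Hadha-201 at 0.22. Hadha-201 held 64.2% of the level of Hadha and is annotated as a processed transcript, not as protein coding. Hadhb-203, at 0.24, was called although the sum of Hadhb was not. Oxct1-201, with 61.8% of the level of Oxct1, was lower by 0.28.

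From mouse to mouse the genes rose and fell together within groups. Over the 595 pairs of the 35 genes, the median Pearson r of their deviations from group means over 25 mice was 0.56, with 489 pairs above 0, while the median over pairs of all genes was -0.0016. These are descriptions over points that share a library and its scaling factor. The closest pairs were Acadvl with Ech1 (0.954), Acadvl with Acadm (0.946) and Hadhb with Eci1 (0.945). Bdh1 ran the other way, with -0.665 against Acaa2 and -0.649 against Ech1, and went with Oxct1 (0.725). Bdh1 was lowest in GPx4+/- CNTL replicate 3 and WT HFHS + Carnosine replicate 2, at 25.6 and 29.6. These mice had the highest Acaa2 (1035 and 1229.8) and Ech1 (1829 and 2308) of their groups. They also had the lowest Oxct1 of their groups, at 448.5 and 425.8. How far these r rest on the mice named was not tested. Acsl5 had a median r of -0.324 with the others.

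**Figure D4:**
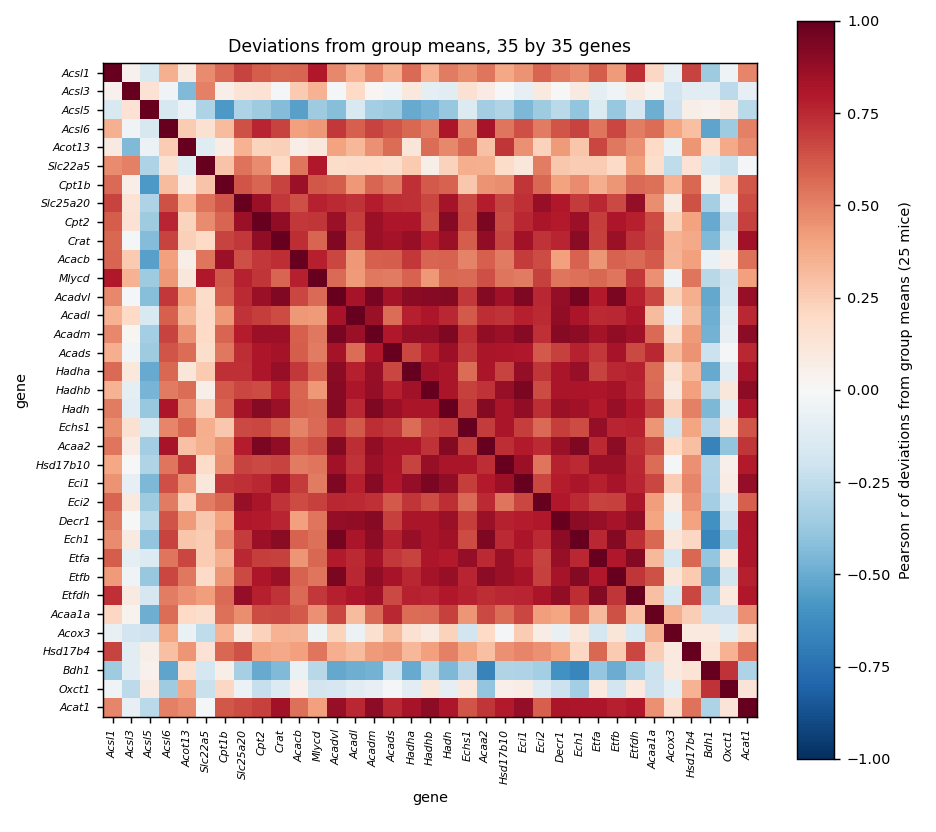
Pearson r between genes of the deviations from group means of log2(scaled TPM + 0.5) over 25 mice, for all pairs of the 35 genes. Most pairs are red (above 0), while Bdh1, Oxct1, Acsl3 and Acsl5 stand out with pale or blue rows.

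The mean deviation of the 35 genes from their own means over all mice averaged -0.04 in WT CNTL mice, -0.09 in GPx4+/- CNTL mice, 0.03 in WT HFHS mice, 0.05 in GPx4+/- HFHS mice and 0.05 with carnosine. Individual mice spread widely around these means, from -0.158 in WT CNTL replicate 3 to 0.163 in GPx4+/- HFHS replicate 1. WT CNTL replicate 3 was the lowest of its group for 29 of the 35 genes, and it also had the high atrial sum of 4633. GPx4+/- CNTL replicate 3 was the highest of its group for 28 genes, with an atrial sum of 130.7. WT HFHS + Carnosine replicate 2 was the highest of all 25 mice for 14 genes, with an atrial sum of 593.9. GPx4+/- HFHS replicate 1 was the highest of its group for 24 genes, with a hepatocyte sum of 100.6. The part of these marker levels in the results was not tested beyond the counts without the 6 or 8 libraries.

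**Figure D5:**
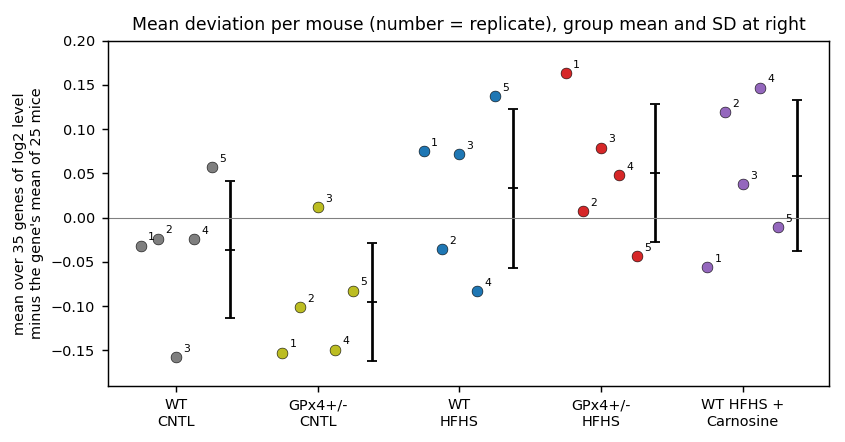
Mean over the 35 genes of the log2 level minus the gene's mean of 25 mice, for each mouse (points numbered by replicate), with the group mean and SD at the right of each group. The CNTL means of -0.04 and -0.09 lie below the HFHS means of 0.03 to 0.05, and the groups overlap.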

How the data were processed

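Heart RNA of 25 mice, left ventricular by the extraction protocol (5 groups of 5, from the sample labels) was sequenced from stranded mRNA libraries. The authors deposited TPM per transcript and library, each library summing to 1000000. The submitters' processing notes name kallisto 0.43.1, sleuth 0.30.0 and GRCm38, while the methods describe STAR and DESeq2 on gene counts for the study's own tests. TPM keeps no read depth, so no counting error is given, and limma took the place of a count test.

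Of 119215 transcripts, 116772 matched GENCODE M21 and 2443 (0.551 to 0.723% of TPM) did not. Gene sums were divided by median-ratio factors over 11879 genes. Genes whose scaled TPM averaged 1 or more were fitted as log2(scaled TPM + 0.5) with limma 3.58.1 in R 4.3.3, with a mean-variance trend and Benjamini-Hochberg adjustment over all 11983 genes, and checked on simulated data. Diet, genotype and their interaction used the 20 mice without carnosine, carnosine the 10 WT HFHS mice, and WT HFHS + Carnosine against WT CNTL all 25. Single values were compared by two-sided exact permutation of scaled TPM, whose smallest p for 5 against 5 is 0.0079.

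Given with every mouse's value were genes called in any comparison and, in roles with none, the gene with the smallest p for diet. Of the pathway lists, genes called in a comparison were named, at most 6 per comparison by p. Ppara, Ppargc1a, Pdk4, Acsl1, Bdh1, Acsl4 and Scp2 were named outside this rule, the last 2 after their values were seen. The members, lists and the 6 libraries left out together were chosen with earlier results of these data known. The alternatives were TPM as deposited, quantile normalization, a minimum of 5 or no minimum, array weights, a pseudocount of 0.1, other mice in the fit, a replicate block, leaving out the 6 libraries (or 8, chosen after seeing the data), and leaving out each mouse. Symbols were matched by name, Mmut under its older symbol Mut. The result for 1 gene of the pathway lists is not reported here.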

Additional observations from a re-analysis of the deposited data

Results flagged for a closer look

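Of 175 groups of 5 mice (35 genes in 5 groups), 13 held a mouse whose gap to its nearest neighbour exceeded 0.71 of the group's range. Chance gives about 8.75 if the 175 are separate cases. The genes come from the same mice and move together, so 13 against 8.75 is no test. GPx4+/- CNTL replicate 3 was the highest of its group in 4 of the 13. It had an Acsl1 level of 438 scaled TPM against 334.3 to 351.9 in the others, a Mlycd level of 99.9 against 64.3 to 73.7, an Acaa2 level of 1035 against 709.1 to 784.2, and an Ech1 level of 1829 against 1211 to 1354. WT CNTL replicate 3 was the lowest of its group in 4, with Acsl1 at 324.4 against 373.3 to 384.5, Echs1 at 235.7 against 263.9 to 270.2, Hsd17b10 at 112.1 against 131.3 to 138, and Etfdh at 308.7 against 353.4 to 369.8. The other 5 were spread over as many mice. Acsl1 stood at 428.2 in WT HFHS replicate 3 against 361 to 367.7. Acsl5 stood at 7.23 in WT HFHS replicate 4 against 4.80 to 5.17. Cpt2 stood at 152.9 in WT CNTL replicate 5 against 129.6 to 133.2. Acacb stood at 106.7 in WT HFHS + Carnosine replicate 4 against 79.1 to 83.3. Decr1 stood at 292.2 in WT HFHS + Carnosine replicate 2 against 230.2 to 245. No diet difference was shown to differ between the genotypes.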

How the results depend on the processing

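On TPM as deposited the number of called genes was 10 over both genotypes, 1 in WT, 2 in GPx4+/- and 3 for WT HFHS + Carnosine against WT CNTL, in place of 16, 4, 9 and 6. The median of the 35 genes was then 0.0491 in GPx4+/- and -0.0636 for the difference between genotypes, against 0.0455 after scaling. Quantile normalization gave 13 for WT HFHS + Carnosine against WT CNTL, and no filter on low levels gave 0 in WT and 2 there. Fitting only the groups compared gave 2 in WT, 3 in GPx4+/- and 3 with carnosine. Without the 6 libraries with markers of other tissue, and so with fewer mice, the counts were 10 over both genotypes, 2, 1 and 2. Without GPx4+/- HFHS replicates 1 and 3 as well, a choice made after seeing the data, they were 4, 2, 0 and 2, and the median of the 35 genes was 0.0582 for diet in GPx4+/-, -0.0836 between genotypes on HFHS and -0.0494 for the difference of the diet effects, against 0.157, 0.0164 and 0.0455. The causes were not tested. With each mouse left out, the counts ran from 14 to 17 over both genotypes, 0 to 5 in WT, 4 to 13 in GPx4+/- and 1 to 7 with carnosine. The difference of Acsl6 was -0.0284 without these 8 libraries, against 0.14. That of Acot13 turned from 0.02 to -0.0316 on TPM as deposited and to -0.0030 without the 8 libraries, and had its lowest value of -0.0073 and its highest of 0.047 with a mouse left out. Among single genes, 298 of 403 values under other settings kept direction and side of the threshold, 102 kept direction but lost their call and 3 reversed.

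Replicate numbers name different animals, and deviations of same-numbered mice correlated between -0.34 and 0.23, with 10 of 50 pairs over 0.1, so they were not taken as pairs. With the replicate block, 16 genes were called over both genotypes, 3 in WT, 6 in GPx4+/- and 4 for WT HFHS + Carnosine against WT CNTL. TPM keeps no depth, so low genes such as Acsl3 cannot be given a counting error.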
